A study of Mus musculus with 10 samples.

Results

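The bone morphogenetic protein (BMP) and growth differentiation factor (GDF) genes described here were 10 named rows of a table of liver RNA from 10 mice, Bmp1, Bmp2, Bmp4, Bmp5, Bmp6, Bmp7, Bmp10, Gdf2, Gdf6 and Gdf15. They were chosen by gene symbol from the 24011 rows that carry a symbol, and each symbol matched 1 row. Livers of 5 mice given AdVEGF were compared with livers of 5 mice given AdCMV, to learn which BMPs and GDFs differ after systemic VEGF gene transfer. All 10 animals were male C57BL/6 mice, young adults according to the methods, and the labels name no engineered allele. AdVEGF is an adenovirus that expresses VEGF-A165 from the CMV promoter, and AdCMV is an empty vector that carries that promoter alone. Both were injected into the tail vein and the tissue was taken on day 6, so that every mouse carried an adenovirus and no uninjected liver is part of the comparison. The vector promoter is active in many cell types, and the RNA came from whole liver.

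BMPs and most GDFs are secreted dimers of the TGFβ superfamily. They bind a pair of type I and a pair of type II receptors, and the type I receptor phosphorylates SMAD1, SMAD5 and SMAD9, which enter the nucleus with SMAD4 and raise transcription of the Id genes and of the inhibitory Smad6 and Smad7. In the liver, BMP2 and BMP6 from sinusoidal endothelial cells drive hepcidin in hepatocytes and so control iron, while BMP9 (the product of Gdf2) and BMP10 act on endothelial cells through ALK1 and endoglin. GDF15 is a distant relative that circulates as a stress signal, and BMP1 is a metalloprotease that shares the name but not the fold of the ligands.

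Promoters were read for the related pair Gdf2 and Bmp10, which were both higher after AdVEGF, and for Bmp6 and Bmp4, of which Bmp6 was called and Bmp4 was not. Each is the 250 bases before the annotated start in RefSeq (build GRCm38.p6), printed 5′ to 3′ on the strand of the gene, and 6 of the 10 genes matched the promoter set. Bmp1, Bmp2, Bmp7 and Gdf6 did not match. Capitals mark matches, on either strand, to 5 motifs that did not overlap in these windows: the TATA box, the CCAAT box, the GC box, a GC-rich SMAD element and the GATA element. The windows are Gdf2 chr14:33940789-33941038 (plus strand), Bmp10 chr6:87428744-87428993 (plus strand), Bmp6 chr13:38345466-38345715 (plus strand) and Bmp4 chr14:46390670-46390919 (minus strand).
Gdf2: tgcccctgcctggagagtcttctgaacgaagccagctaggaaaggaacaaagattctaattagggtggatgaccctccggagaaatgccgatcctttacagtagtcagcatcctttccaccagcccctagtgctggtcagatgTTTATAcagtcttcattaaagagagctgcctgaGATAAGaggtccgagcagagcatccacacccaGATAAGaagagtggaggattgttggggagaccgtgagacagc
Bmp10: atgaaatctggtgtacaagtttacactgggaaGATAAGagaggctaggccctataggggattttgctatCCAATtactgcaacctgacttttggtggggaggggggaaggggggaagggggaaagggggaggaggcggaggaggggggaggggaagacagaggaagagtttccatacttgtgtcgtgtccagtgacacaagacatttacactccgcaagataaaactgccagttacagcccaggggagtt
Bmp6: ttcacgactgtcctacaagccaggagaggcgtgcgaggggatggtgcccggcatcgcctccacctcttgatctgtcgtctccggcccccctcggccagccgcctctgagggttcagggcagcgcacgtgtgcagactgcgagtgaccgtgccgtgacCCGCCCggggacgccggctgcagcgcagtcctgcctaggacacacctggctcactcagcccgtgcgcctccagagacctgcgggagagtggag
Bmp4: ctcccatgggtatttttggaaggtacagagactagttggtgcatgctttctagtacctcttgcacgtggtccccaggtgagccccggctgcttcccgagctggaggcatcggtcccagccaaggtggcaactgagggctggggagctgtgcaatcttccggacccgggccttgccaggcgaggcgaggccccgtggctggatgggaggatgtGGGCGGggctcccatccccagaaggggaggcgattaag

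The pairs differed in their letters. The Gdf2 window held the GATA element at 74 and at 42 bases before the start and the TATA box, on the opposite strand, at 107 bases. The Bmp10 window held the GATA element at 218 and the CCAAT box at 181 bases before the start, and the letters GATAAG are present in 6.55% of the 32851 promoters of that length. By contrast, the Bmp6 and Bmp4 windows each held 1 GC box, at 93 and 38 bases before the start, and no GATA element. Of the matched genes not printed, Bmp5, also called higher, held none of the 5 motifs, and Gdf15 held no GATA element. The GC content was 50.4% for Gdf2, 52% for Bmp10, 68.8% for Bmp6 and 63.2% for Bmp4, where the median promoter had 52.4%. Searched on both strands, the TATA box was spelled TATAAA and was found in 12.4% of all promoters. The CCAAT box, by its own letters, was found in 33.8%. The GC box was spelled GGGCGG and was found in 32.7%. The SMAD element was spelled GGCGCC and was found in 9.59% of all promoters and in none of the 4 windows. A match of letters is a description of the sequence and not a binding site.

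Values are RPKM, reads per kilobase of transcript relative to the mapped tags of the library, so that levels can be compared between genes. The libraries held 5758959 to 13494004 mapped tags in the AdCMV group and 5596565 to 8133954 in the AdVEGF group. The major urinary protein (Mup) genes of hepatocytes took 18.0 to 50.5% of the reads summed over rows in AdCMV mice and 7.84 to 28.6% in AdVEGF mice. These row sums exceeded the mapped tags by 2.31 to 13.9%, so the Mup shares are approximate, as are library totals that leave out these genes. Over every gene tested the log2 fold changes had a median of 0.38. The values of the 10 genes are therefore also given after median-ratio scaling, which levels the middle of the genes between libraries and brings this median to -0.0044. Values given as scaled are log2 fold changes after it. The vector expresses VEGF-A, and the sources used here do not name the species of its transgene. The paper measured VEGF in plasma and liver with an ELISA for the human protein. The row of mouse Vegfa may therefore not measure the transgene. Mouse Vegfa was at 13.8 to 23.2 RPKM in AdCMV mice and at 28.3 to 39.4 RPKM in AdVEGF mice, with no overlap, and its log2 fold change of 0.82 (limma adjusted p = 0.00487, 0.42 after median-ratio scaling) stayed under the threshold for a call.

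A call required a Benjamini-Hochberg adjusted p below 0.05 in limma, over all 13933 genes tested, together with a log2 fold change above 1 or below -1. Because 0.1 was added to each RPKM before the logarithm, fold changes of weakly expressed genes come out too small. Of the 10 genes, 9 passed the filter of a mean over 0.5 RPKM in 1 of the groups, and Bmp7 did not. Bmp2, Bmp5, Bmp6, Bmp10, Gdf2 and Gdf6 were called higher in the AdVEGF group, 6 of the 9, where 13% of all genes tested were called higher. Called lower were 0 of the 9 in limma (0 at an unadjusted p under 0.05 and 0 with voom), against 1.54% of all genes. After median-ratio scaling, 3 remained higher, Bmp2, Bmp6 and Gdf2, where 7.77% of all genes were called. The median log2 fold change of the 9 was 1.18, and 0.91 after the scaling. Bmp6, Bmp10 and Gdf6 passed the filter only through the AdVEGF group, in which they were high, so the count and the median over the 9 are descriptions. With no filter all 10 genes were tested and 6 were called.

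**Figure D1:**
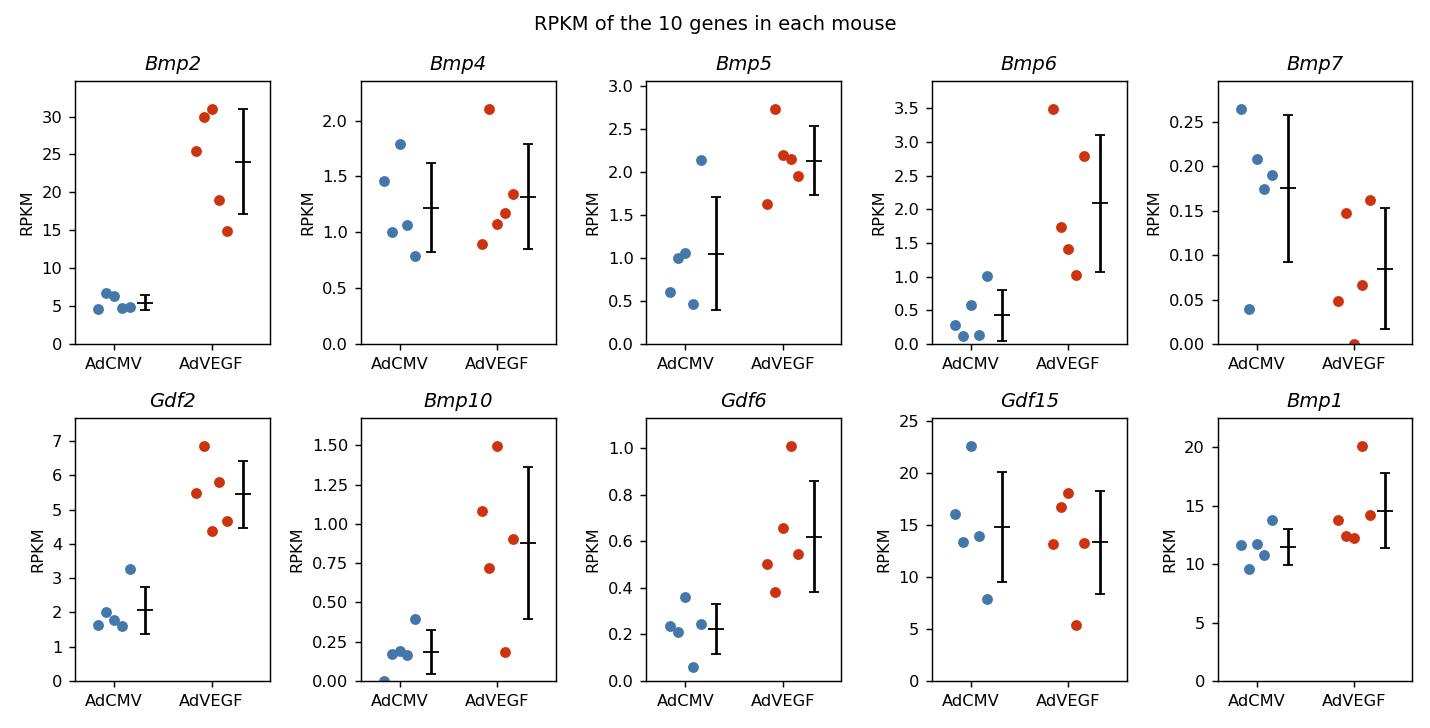
RPKM (y axis, linear from 0, a scale of its own for each gene) of the 10 genes in the 5 AdCMV (blue) and 5 AdVEGF (red) mice, each point 1 mouse, with the mean and SD beside them in black. The groups are apart for Bmp2, Bmp6, Gdf2 and Gdf6, and they overlap for the other 6 genes.

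Every AdVEGF mouse lay above every AdCMV mouse for Bmp2, Bmp6, Gdf2 and Gdf6, 4 of the 9 genes tested, where 14.3% of all genes tested did so. After median-ratio scaling Bmp2, Gdf2 and Gdf6 were apart, 3 of the 9, where 10.6% of all genes tested were. Bmp6 and Gdf6 passed the filter only through the AdVEGF group, so these counts are descriptions as well. Every AdVEGF mouse below every AdCMV mouse was seen for 0 of the 9 genes, against 1.29% of all genes tested.

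Bmp2, an endothelial ligand in liver (mm9 chr2:133377895-133388632, plus strand, RefSeq NM_007553), had the highest level of the BMP-type ligands in both groups. The AdCMV mice 1 to 5 had 4.65, 6.74, 6.31, 4.80 and 4.88 RPKM, and the AdVEGF mice 1 to 5 had 25.4, 29.9, 31.0, 19.1 and 15.0 RPKM. The lowest AdVEGF mouse was thus well above the highest AdCMV mouse, and mice 4 and 5 were the lower ones of the AdVEGF group. This gave a log2 fold change of 2.08 with a 95% interval of 1.60 to 2.56 (limma adjusted p = 3.88e-06), and 1.68 after median-ratio scaling. It rested on 100 to 324 reads in an AdCMV mouse and 359 to 792 in an AdVEGF mouse, by far the best counted of the called genes. Bmp2 stayed called in all 12 alternatives of the analysis and in all 10 fits that left out 1 mouse, with an adjusted p between 1.21e-08 and 0.00416.

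Bmp6, the second endothelial ligand of the hepcidin pathway (mm9 chr13:38437585-38591597, plus strand, NM_007556), had a large log2 fold change on few reads, whose rank among the 9 genes depends on the pseudocount: with 0.01 it was 2.57 and that of Bmp10 2.61, and with 1 it was 1.09 and that of Bmp2 1.92. Its levels were 0.288, 0.123, 0.581, 0.133 and 1.01 RPKM in the AdCMV mice and 3.48, 1.74, 1.41, 1.02 and 2.79 RPKM in the AdVEGF mice. The groups met almost at 1 RPKM, between AdCMV mouse 5 and AdVEGF mouse 4, and these overlapped after median-ratio scaling, at 1.02 and 0.860. The log2 fold change was 2.21 (interval 1.25 to 3.17, limma adjusted p = 0.00199), and 1.90 after the scaling (adjusted p = 0.00786). The adjusted p over all alternatives and left-out mice ranged from 3.49e-05 to 0.171, the highest with treat, a stricter test of changes beyond 1, which lost the call. The spread was wide, with an SD of 87.9% of the mean in AdCMV mice and 48.7% in AdVEGF mice, on 3 to 14 reads and 19 to 47 reads. Pooled over mice, the reads relative to mapped tags were 5.72 times higher after AdVEGF, with a counting interval of 3.98 to 8.42 that leaves out the spread between mice.

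The endothelial markers moved with these ligands. All 10 general endothelial markers (Pecam1, Cdh5, Kdr, Tek, Tie1, Emcn, Erg, Egfl7, Esam and Robo4) were called higher with both scalings, their median log2 fold change was 2.68 (2.30 scaled), none was at 0 in every mouse, and their summed level was 28.7 to 60.0 RPKM in AdCMV mice and 278 to 342 RPKM in AdVEGF mice. Of 9 sinusoidal markers 7 were called higher (5 after median-ratio scaling, without Fcgr2b and Gata4), with a sum of 60.7 to 102 RPKM and 181 to 261 RPKM, while Dnase1l3 (log2 fold change -0.98) and F8 (-0.89) were not called and were called lower after median-ratio scaling. Relative to the sum of the 10 endothelial markers, Bmp2 was at 8.56 to 17.8% in AdCMV mice and 5.37 to 10.8% in AdVEGF mice, with 3 of 5 AdVEGF mice below every AdCMV mouse. Bmp6 was at 0.324 to 1.78% and 0.300 to 1.17% of that sum, and the groups overlapped. These shares depend on the list, and none was taken against the sinusoidal markers. The log2 fold change of Bmp2, 2.08 (1.68 scaled), lay under the median of the general markers. It lay above the median of the sinusoidal markers, 1.63 (1.23 scaled). In whole liver, fewer or more cells of a type and less or more RNA per cell cannot be told apart, and the part of the markers in these results was not tested.

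Gdf2, which encodes BMP9, a ligand that hepatic stellate cells release to the circulation (mm9 chr14:34754225-34760384, plus strand, NM_019506), was the next in level. AdCMV mice had 1.62, 2.01, 1.79, 1.60 and 3.26 RPKM, and AdVEGF mice had 5.49, 6.86, 4.37, 5.81 and 4.68 RPKM. AdCMV mouse 5 stood above the other 4 of its group and still below every AdVEGF mouse. On the log2 scale Gdf2 rose by 1.39 (interval 0.90 to 1.89, limma adjusted p = 0.000354), and 1.00 after median-ratio scaling (adjusted p = 0.00321), which is at the threshold for a call. Without AdCMV mouse 5 it was 1.57. The call was kept in each of the 10 fits that left out 1 mouse, and was lost with treat (adjusted p = 0.754) and with library totals that leave out the Mup genes, where the log2 fold change was 0.91. Its adjusted p over all alternatives was 7.06e-05 to 0.754.

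Bmp10, the closest relative of Gdf2 and a second ligand of ALK1 (mm9 chr6:87378996-87384506, plus strand, NM_009756), was measured near the limit of detection. The AdCMV mice had 0, 3, 2, 2 and 3 reads and the AdVEGF mice had 8, 7, 11, 2 and 8 reads. In RPKM these were 0, 0.169, 0.193, 0.162 and 0.397 in AdCMV mice and 1.08, 0.718, 1.50, 0.187 and 0.905 in AdVEGF mice. AdVEGF mouse 4 lay among the AdCMV mice and the other 4 lay above all of them. In limma the log2 fold change was 1.75 (interval 0.65 to 2.85, limma adjusted p = 0.022) and 1.50 after median-ratio scaling, a size that depends on the value added before the logarithm, and the pooled reads relative to mapped tags were 4.71 times higher with a counting interval of 2.29 to 10.6. The call was lost after median-ratio scaling (adjusted p = 0.0575, from 0.00397 to 1 over all alternatives) and without AdCMV mouse 1 (0.064), AdVEGF mouse 1 (0.0541) or AdVEGF mouse 3 (0.0728).

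Stellate markers, beside which Gdf2 was read, also differed. Of 9 markers, 6 were called higher with either scaling (Lrat, Des, Reln, Rgs5, Pdgfrb and Colec11), the median log2 fold change was 1.58 (1.19 scaled), and the summed level was 91.2 to 137 RPKM in AdCMV mice and 165 to 323 RPKM in AdVEGF mice, with none at 0 in every mouse. As a share of this sum, Gdf2 was at 1.48 to 2.37% in AdCMV mice and 1.70 to 2.83% in AdVEGF mice, with 2 of 5 AdVEGF mice above every AdCMV mouse. Dcn, which was not called, alone held 55.1 to 90.0 RPKM of the sum in AdCMV mice and 76.5 to 171 RPKM in AdVEGF mice, so it weighs heavily in this share. The log2 fold change of Gdf2, 1.39 (1.00 scaled), lay under the median of the 9 markers. The part of the stellate markers in the Gdf2 result was not tested.

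Bmp5, a BMP of the same subgroup as Bmp6 and Bmp7 (mm9 chr9:75623172-75746824, plus strand, NM_007555), was called on the deposited values and not after median-ratio scaling. AdCMV mice had 0.603, 1.00, 1.06, 0.463 and 2.14 RPKM, and AdVEGF mice had 1.62, 2.73, 2.20, 2.15 and 1.95 RPKM. AdCMV mouse 5 was as high as the AdVEGF mice, and 3 of 5 AdVEGF mice lay above every AdCMV mouse. Its log2 fold change was 1.10 (interval 0.39 to 1.81, limma adjusted p = 0.0248), and 0.74 after median-ratio scaling (adjusted p = 0.0709, from 0.00289 to 1 over all alternatives). The call was also lost without AdCMV mouse 1 (0.0717), AdCMV mouse 4 (0.0662), AdVEGF mouse 2 (0.0668) or AdVEGF mouse 3 (0.0552).

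Gdf6, known as BMP13 and studied mostly in joints and the skeleton (mm9 chr4:9771519-9789492, plus strand, NM_013526), was low in all mice. The levels were 0.235, 0.210, 0.360, 0.060 and 0.246 RPKM in AdCMV mice, on 2 to 10 reads, and 0.505, 0.382, 0.658, 1.01 and 0.547 RPKM in AdVEGF mice, on 10 to 29 reads. The groups did not overlap with either scaling, and the lowest AdVEGF mouse was close to the highest AdCMV mouse. The log2 fold change of 1.18 (interval 0.31 to 2.05, limma adjusted p = 0.0459) was just past the threshold. After median-ratio scaling it was 0.91 (adjusted p = 0.0744, from 0.0153 to 1 over all alternatives), and the call was kept in 1 of 10 fits that left out 1 mouse, the one without AdCMV mouse 3. Over the other 9 the adjusted p was 0.0524 to 0.118.

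Bmp4, the closest relative of Bmp2 in sequence (mm9 chr14:47003196-47010274, minus strand, NM_007554), did not follow it. AdCMV mice had 1.46, 1.01, 1.79, 1.07 and 0.787 RPKM, and AdVEGF mice had 0.896, 2.10, 1.08, 1.18 and 1.35 RPKM. The groups overlapped along most of their range. The log2 fold change was 0.10 (limma adjusted p = 0.821) with an interval of -0.53 to 0.73, and -0.27 after median-ratio scaling, so that its sign depends on the scaling. It was also negative without AdCMV mouse 5 (-0.031) and without AdVEGF mouse 2 (-0.072). The interval does not reach a log2 fold change of 1 in either direction. A row for Gm15217, at a mean of 0.793 RPKM, overlaps the end of Bmp4 on the opposite strand, and whether strand was used in counting is not given in the sources used here.

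Bmp7, a kidney and skeletal BMP (mm9 chr2:172693513-172765822, minus strand, NM_007557), was below the filter. It had 7, 2, 6, 6 and 4 reads in AdCMV mice and 1, 4, 0, 2 and 4 reads in AdVEGF mice, or 0.040 to 0.264 RPKM and 0 to 0.162 RPKM. All 5 AdVEGF mice lay below 4 of the AdCMV mice, and AdCMV mouse 2, at 0.040, lay among them. The difference of the mean log2 values was -0.59 (two-sided exact permutation p = 0.119, unadjusted), and -0.77 after median-ratio scaling (exact permutation p = 0.0635). The test did not reach 0.05, and 3 reads correspond to 0.0607 to 0.146 RPKM of Bmp7.

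Gdf15 (mm9 chr8:73153293-73155534, minus strand, NM_011819) had the highest level of the 10 genes in the AdCMV group. AdCMV mice had 16.0, 13.4, 22.6, 13.9 and 7.88 RPKM, and AdVEGF mice had 13.2, 16.7, 18.0, 5.35 and 13.2 RPKM. The groups overlapped, with AdVEGF mouse 4 lowest of all. The difference on the log2 scale was -0.18 (interval -0.85 to 0.49, limma adjusted p = 0.688), and -0.58 after median-ratio scaling (adjusted p = 0.247, from 0.167 to 1 over all alternatives). Its sign was not the same in all alternatives, which ranged from -0.68 to 0.12, the last without AdVEGF mouse 4. Gfral, its receptor of the hindbrain, was listed at 0 in every liver.

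Bmp1 (mm9 chr14:70874362-70920067, minus strand), the procollagen C-proteinase, is represented by a non-coding RefSeq record, NR_033241, and whether its reads stand for the coding transcripts of the protease is unknown. AdCMV mice had 11.6, 9.56, 11.7, 10.8 and 13.7 RPKM, and AdVEGF mice had 13.8, 12.4, 12.3, 20.1 and 14.2 RPKM. All 5 AdVEGF mice lay above the AdCMV median, but only 3 lay above every AdCMV mouse, with mouse 4 far above the rest. Its log2 fold change was 0.33 (interval -0.085 to 0.74, limma adjusted p = 0.224) and -0.073 after median-ratio scaling (adjusted p = 0.812), so the sign depended on the scaling. The range of its adjusted p over all alternatives was 0.166 to 1.

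**Figure D2:**
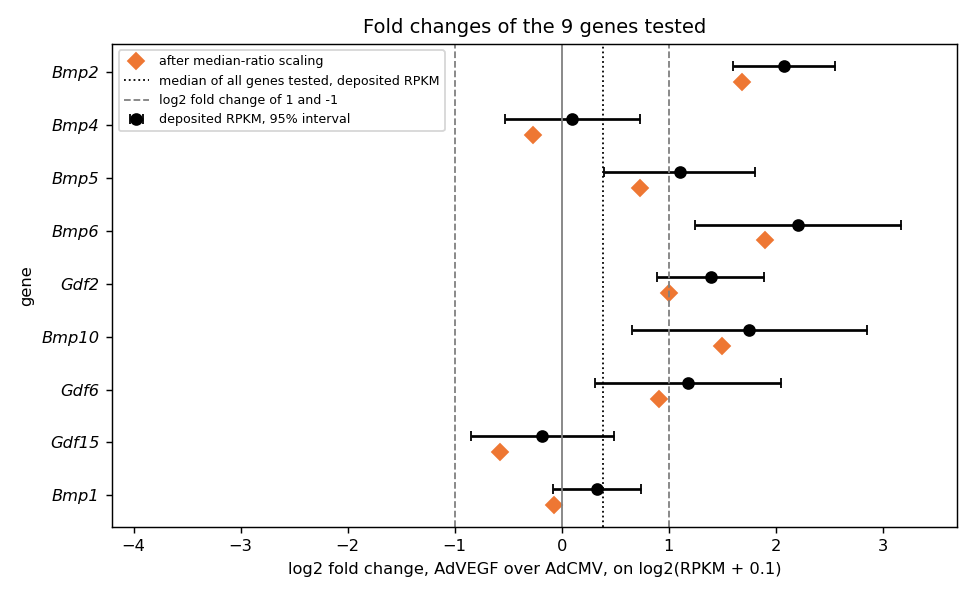
Log2 fold change of AdVEGF over AdCMV on log2(RPKM + 0.1) (x axis) for the 9 genes tested (y axis), as black points with the 95% interval of limma on the deposited RPKM and orange diamonds after median-ratio scaling. Dashed lines mark 1 and -1, and the dotted line marks the median of all genes tested, 0.38. The diamond lies to the left of the point for each of the 9 genes, and for Bmp4, Gdf15 and Bmp1 the interval includes 0.

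In single-gene exact permutation tests, of which 10 were run and none was adjusted, Bmp2, Bmp6, Gdf2 and Gdf6 reached a two-sided p of 0.00794, the smallest that 5 against 5 mice allow. Bmp5 and Bmp10 had an exact permutation p of 0.0238 each, Bmp1 of 0.0397, Gdf15 of 0.627 and Bmp4 of 0.722. After median-ratio scaling the exact permutation p of Bmp1 was 0.722 and that of Bmp5 was 0.0556, while Bmp2, Gdf2 and Gdf6 stayed at the smallest value. That of Bmp6 was then 0.0159 and that of Bmp10 was 0.0397. The smallest value is reached only where the groups do not overlap, so it repeats the separation given above.

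The order of the levels differed between the groups. In AdCMV livers the mean RPKM ran from Gdf15 (14.7) and Bmp1 (11.5) to Bmp2 (5.48), Gdf2 (2.06), Bmp4 (1.22), Bmp5 (1.05), Bmp6 (0.427), Gdf6 (0.222), Bmp10 (0.184) and Bmp7 (0.175). The only neighbours whose ranges did not overlap were Bmp1 and Bmp2, and Bmp2 and Gdf2, with the first above the second in 5 of 5 mice. In AdVEGF livers the order was Bmp2 (24.1), Bmp1 (14.6), Gdf15 (13.3), Gdf2 (5.44), Bmp5 (2.13), Bmp6 (2.09), Bmp4 (1.32), Bmp10 (0.878), Gdf6 (0.621) and Bmp7 (0.085). Here the neighbours apart in range were Gdf2 and Bmp5, and Gdf6 and Bmp7, and Bmp2 was above Bmp1 in 4 of 5 mice.

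Shares of the summed RPKM do not depend on the total of a library. The sum of the 10 genes was 33.2 to 46.6 RPKM in AdCMV mice and 54.8 to 73.7 RPKM in AdVEGF mice. Bmp2 made up 12.7, 19.7, 13.6, 14.5 and 14.1% of it in the AdCMV mice and 38.8, 40.6, 42.7, 34.1 and 27.3% in the AdVEGF mice. The share of Gdf15 was 22.8 to 48.5% (median 42.1%) and 9.56 to 24.9% (median 22.7%), which overlapped through AdCMV mouse 5. Among the 8 BMP-type ligands, without Bmp1 and Gdf15, the sum was 8.45 to 12.9 RPKM and 27.4 to 44.6 RPKM. Bmp4 was 6.10 to 16.0% of these 8 in AdCMV mice and 2.33 to 4.92% in AdVEGF mice, with no overlap, at RPKM values that did overlap. Gdf2 was 14.5 to 25.3% and 10.4 to 19.1% of the 8, which overlapped.

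**Figure D3:**
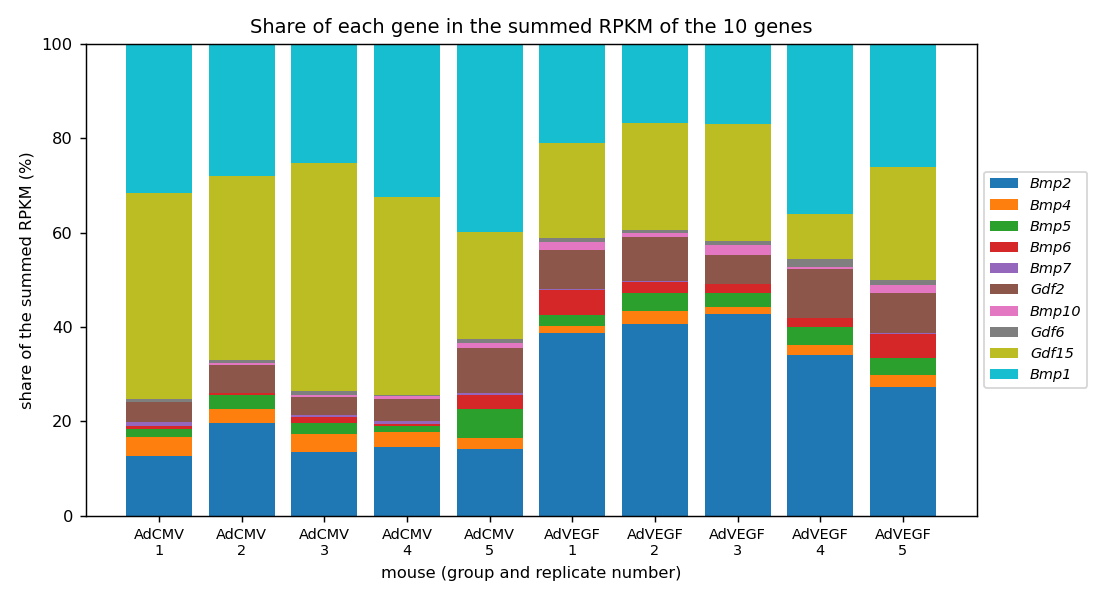
Share of each gene (colours, stacked) in the summed RPKM of the 10 genes, in percent (y axis), for each of the 5 AdCMV and 5 AdVEGF mice (x axis). The blue block of Bmp2 is at most 19.7% in an AdCMV mouse and at least 27.3% in an AdVEGF mouse, and Gdf15 and Bmp1 fill most of the AdCMV bars.

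Ratios within a mouse set relatives side by side, again without the library total. The ratio of Bmp2 to Bmp4 was 3.19, 6.70, 3.53, 4.49 and 6.20 in AdCMV mice and 28.3, 14.3, 28.7, 16.2 and 11.1 in AdVEGF mice. These did not overlap, and no test was run on the ratios. Bmp6 to Bmp5 was 0.123 to 0.549 in AdCMV mice and 0.477 to 2.14 in AdVEGF mice, with 4 of 5 AdVEGF mice above every AdCMV mouse. Bmp2 to Gdf2 was 1.50 to 3.53 and 3.20 to 7.08, with 3 of 5 above. Bmp2 to Bmp6, the endothelial pair, was 4.82 to 54.8 and 5.38 to 21.9, so that the AdVEGF range lay inside the AdCMV range. Gdf2 to Bmp10, defined in 4 AdCMV mice since Bmp10 was at 0 in 1, was 8.21 to 11.9 and 2.92 to 31.1, on the few reads of Bmp10.

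**Figure D4:**
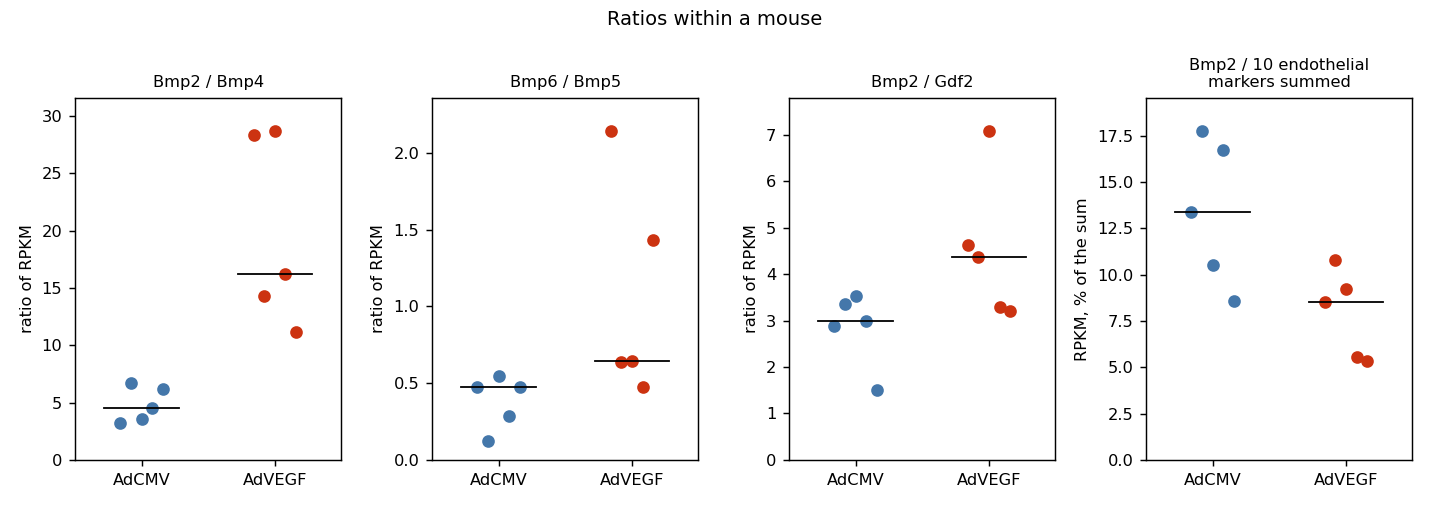
Ratios within a mouse for the 5 AdCMV (blue) and 5 AdVEGF (red) mice, from left to right Bmp2 to Bmp4, Bmp6 to Bmp5 and Bmp2 to Gdf2 (y axes, ratio of RPKM) and Bmp2 as a percent of the summed RPKM of 10 endothelial markers, with the median of each group as a line. Bmp2 to Bmp4 is at most 6.70 in AdCMV mice and at least 11.1 in AdVEGF mice. The share of Bmp2 against these general endothelial markers is 5.37 to 10.8% in AdVEGF mice, and the sinusoidal markers are not in that sum.

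The rest of the pathway was read from lists of known genes, beside 13% of all genes called higher and their median log2 fold change of 0.38. Of 12 other BMP and GDF ligands 4 were tested, with a median log2 fold change of 0.82 (0.45 scaled), and 0 were called in limma (2 at an unadjusted p under 0.05, 0 with voom). They were Gdf1 (0.91, adjusted p = 0.0304), Gdf10 (0.87), Bmp8b (0.78) and Gdf3 (0.23), of which Gdf1 shares a transcript with the ceramide synthase gene Cers1 and is uncertain. Bmp15, an oocyte ligand, was at 0 in every mouse.

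Receptors and co-receptors were called in 4 of 9 tested genes of 11 listed, and in 2 after median-ratio scaling, Eng and Acvrl1, with a median log2 fold change of 0.93 (0.55 scaled). Eng, the endothelial co-receptor endoglin, rose from 14.9 ± 3.60 to 41.0 ± 3.69 RPKM (SD, n = 5 each), with a log2 fold change of 1.50 (1.10 scaled). Acvrl1, which encodes the ALK1 receptor of BMP9 and BMP10, rose from 1.45 ± 0.480 to 4.12 ± 0.731 RPKM (SD, n = 5 each), with 1.49 (1.10 scaled). Rgmb, a co-receptor of BMP2 and BMP4, and Bmpr2, the type II receptor, had log2 fold changes of 1.15 and 1.13, and lost their calls after median-ratio scaling (adjusted p = 0.0638, and a log2 fold change of 0.75). Bmpr1a (-0.21) and Hfe2 (-0.25) went the other way and were not called. After median-ratio scaling they were at -0.61 (limma adjusted p = 0.00577) and -0.66 (adjusted p = 0.0171), within the fold threshold. Acvr1 (0.93), Acvr2a (0.40) and Acvr2b (0.36) were not called either. Bmpr1b was at 0 in every mouse.

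Of 16 inhibitors 8 were tested and 4 were called higher, with a median of 1.02 (0.66 scaled). They were Fstl1, a secreted follistatin-like protein, at 2.71 ± 1.39 and 21.7 ± 3.55 RPKM (SD, n = 5 each, log2 fold change 3.10), Bambi, a decoy receptor (1.74), Fstl3, an activin-binding follistatin (1.25), and Bmper, an extracellular BMP-binding protein (1.25). Fstl3 and Bmper were not called after median-ratio scaling (adjusted p = 0.118 and 0.0711). Grem1 and Sostdc1 were at 0 in every mouse. Of the SMADs of the BMP branch, Smad9 was called (1.42), while Smad1 (0.86), Smad5 (0.81) and Smad4 (0.65) stayed under the fold threshold with adjusted p of 0.00735, 0.021 and 0.0294.

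Genes known to respond to BMP-SMAD signaling were called higher in 10 of 11 cases, and in 8 after median-ratio scaling, with a median log2 fold change of 1.70 (1.33 scaled). Id1, an inhibitor of helix-loop-helix factors, rose from 10.8 ± 2.67 to 78.8 ± 18.4 RPKM (SD, n = 5 each), with a log2 fold change of 2.85 (2.45 scaled). Smad6, an inhibitory SMAD, had 2.04, Msx1, a homeobox gene, had 2.00 on a low level of 0.159 and 0.877 RPKM, and Atoh8, a transcription factor of the hepcidin pathway, had 1.90. Hamp, which encodes hepcidin, was at 761 ± 186 RPKM and 2806 ± 757 RPKM (SD, n = 5 each) and rose by 1.88 (1.47 scaled). Id2 and Hamp2 lost their calls after median-ratio scaling, and Msx2 was not called (0.39). These genes were chosen with earlier results of these data known.

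Proprotein convertases cut the BMP precursors to the mature ligands. Of 4 such genes 0 were called in limma (1 at an unadjusted p under 0.05, 0 with voom), with a median log2 fold change of 0.086 that was -0.30 after median-ratio scaling, and they were Pcsk7 (0.54), Pcsk5 (0.19), Furin (-0.022) and Pcsk6 (-0.42). After the scaling Pcsk6 was at -0.82 (limma adjusted p = 0.00116) and Furin at -0.42 (adjusted p = 0.0345), within the fold threshold. Pcsk7 and Pcsk5 were then at 0.15 and -0.17 (adjusted p = 0.478 and 0.653). Bmp1 processes procollagens, and of 8 listed relatives and substrates all 5 that were tested were called higher with either scaling. The largest were Col1a1 (3.51), Col1a2 (3.30), Col3a1 (3.10) and Pcolce2, an enhancer of the protease (2.03), while the Bmp1 row was not called. Stress genes that rise with Gdf15 in other settings were called in 1 of 8 cases, Asns, an asparagine synthetase (1.63), which lost its call after median-ratio scaling (adjusted p = 0.052). At an unadjusted limma p under 0.05, 4 of the 8 were higher and 0 lower, and voom called 1. The median log2 fold change of the 8 was 0.36 (-0.034 scaled). Ddit3 (0.60), Atf4 (0.43), Cdkn1a (-0.30) and Mdm2 (-0.29) were not called. After median-ratio scaling Cdkn1a was at -0.70 (limma adjusted p = 0.0036) and Mdm2 at -0.69 (adjusted p = 0.0105), within the fold threshold.

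**Figure D5:**
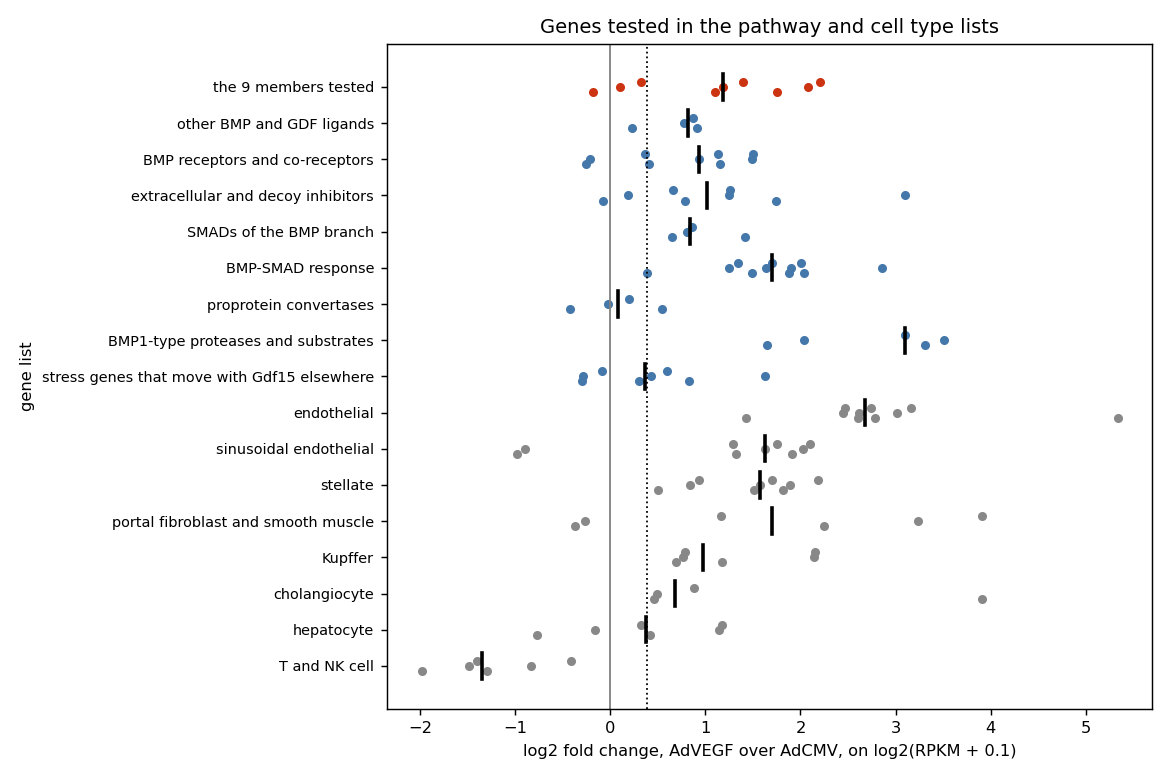
Log2 fold change of AdVEGF over AdCMV on log2(RPKM + 0.1) (x axis) for each tested gene of the lists (y axis), with the 9 genes of the main set in red, pathway lists in blue and cell type markers in grey. Black bars are the medians of the lists and the dotted line is the median of all genes tested, 0.38. The median is 1.70 for the BMP-SMAD response, 2.68 for endothelial markers and 0.086 for the convertases.

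Other cell types differed too. Portal fibroblast and smooth muscle markers were called higher in 4 of 6 cases, Acta2, Tagln, Myh11 and Eln. After median-ratio scaling 3 were called, without Eln. Thy1 (log2 fold change -0.38, -0.76 scaled) and Fbln2 (-0.27, -0.60 scaled) were lower and were not called. The 6 summed to 13.9 to 30.4 RPKM in AdCMV mice and 57.9 to 201 RPKM in AdVEGF mice. Of this, Tagln alone held 10.3 to 21.1 and 35.1 to 137 RPKM. Kupffer cell markers were called higher in 3 of the 6 that matched of 7 listed, and in 2 without Csf1r after the scaling. Their sums were 53.4 to 125 and 122 to 184 RPKM. Cholangiocyte markers were called higher in 1 of 4 cases, Spp1, with either scaling. Their summed level was 24.2 to 53.6 and 281 to 726 RPKM, of which Spp1 alone held 17.9 to 45.7 and 268 to 714 RPKM. Hepatocyte markers, present at high levels in every liver, were called higher in 2 of 6 cases, Alb and Apoa1. After median-ratio scaling 0 were called higher and Cyp2e1 was called lower. The sums were 11133 to 17140 RPKM and 23830 to 28246 RPKM, of which Alb alone held 5864 to 11207 and 14901 to 19215 RPKM. The median log2 fold change of the 6 was 0.37 (-0.032 scaled). On the deposited values Ttr (0.42), Cps1 (0.32), Hnf4a (-0.16) and Cyp2e1 (-0.77) were not called. T and NK cell markers were called lower in 4 of 6 cases, and in 5 with Cd3d after median-ratio scaling (9.38 to 34.0 and 6.28 to 13.5 RPKM). No marker of these lists was at 0 in every mouse, and their part in the results of the 10 genes was not tested.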

How the data were processed

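Total RNA of mouse liver, depleted of ribosomal RNA, was sequenced in 10 mice, 5 per group, with groups taken from the labels. The authors mapped the reads with TopHat and deposited RPKM values per RefSeq transcript and mouse (HOMER and mm9, per the submitters' processing notes), scaled to the library total alone. Their own log fold change and FDR columns were not used, and 0 other columns were left out. Reads behind each value were recovered from the steps of the RPKM values (99.9958% whole within 0.05 reads, limits given for 3 reads, counting error only). The most alike libraries of a group differed by 4.53 times the variance of counting noise, so none was taken for a repeat. The 5 rows without a symbol (at most 0.00534% of reads) were left out.

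Genes whose mean exceeded 0.5 RPKM in either group were fitted with limma 3.58.1 (R 4.3.3, trended eBayes) on log2(RPKM + 0.1). A call needed a Benjamini-Hochberg adjusted p below 0.05 and a log2 fold change beyond 1 or -1, the thresholds of the methods. Each member was also compared with an exact permutation test. Both the fit and the recovery were tested on simulated data. Replicates are separate mice by their labels. Alternatives were median-ratio scaling, library totals without the 21 Mup genes, treat, other filters, pseudocounts of 1 and 0.01, voom on the recovered reads, a block for the replicate number, and fits without 1 mouse. The main fit was not a count test, as RPKM was deposited, and voom on the recovered reads was run only as an alternative. Named were the 10 genes, Vegfa, and of each pathway list up to 4 genes (called genes by fold change, then those of highest mean RPKM). For well counted genes, with at least 10 reads in every mouse, the 3 with the most similar deviations between mice were also named. Genes named beyond this rule were chosen after their values were seen. These were Hamp, Id2, Hamp2, Msx2, Bmpr1a, Hfe2, Acvr1, Acvr2a, Acvr2b, Mdm2, Cers1, Gm15217, genes at 0 and cell type markers. The members and lists were chosen with earlier results of these data known.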

Additional observations from a re-analysis of the deposited data

Results flagged for a closer look

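A value far from the other 4 of its group was looked for in 55 sets of 5 mice, with Dixon's critical value of 0.71 for the gap over the range, and 5 were found. Chance alone marks about 1 in 20 such groups. The Gdf2 level of AdCMV mouse 5, 3.26 RPKM, stood above the rest of its group. The Bmp1 level of AdVEGF mouse 4 was 20.1 RPKM, the highest of its group by a wide gap. In the same mouse the ratio of Gdf2 to Bmp10 was 31.1, with 2 reads of Bmp10. The share of Bmp2 in the summed RPKM was 19.7% in AdCMV mouse 2, above the other AdCMV mice. The share of Gdf6 was 0.181% in AdCMV mouse 4, below the other AdCMV mice, on 2 reads.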

How the results depend on the processing

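Of the 10 genes, 6 were called higher. This count was 3 after median-ratio scaling, 2 with library totals without the Mup genes, 1 with treat, 3 with a pseudocount of 1, and 3 with the replicate block and median-ratio scaling together, an alternative chosen after seeing the data. Leaving out 1 mouse gave 3 to 6, with 3 without AdCMV mouse 1 or AdVEGF mouse 3. Over all genes, 1808 were called higher and 214 lower. The higher calls numbered 1082 after median-ratio scaling, 985 without the Mup genes, 503 with treat, 954 with a pseudocount of 1, 1135 with voom after median-ratio scaling and 1081 with the block after it. The lower calls numbered 438, 558, 36, 477 and 475 under these settings, pseudocount left aside. Leaving Bmp1 out of the sum moved the median share of Bmp2 from 14.1 to 21.4% in AdCMV mice and from 38.8 to 49.1% in AdVEGF mice. Over the single genes, 149 values kept their direction and side of the threshold, 38 fell below it, and 11 changed sign, 6 of Bmp4, 4 of Bmp1 and 1 of Gdf15, none of which was called. Gdf15 was at 0.12 without AdVEGF mouse 4, and Bmp4 at -0.031 without AdCMV mouse 5 and -0.072 without AdVEGF mouse 2. None of the 6 called genes changed direction under the alternatives run. The cause was not tested.

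The replicate block alone called 5 of the genes and 1933 genes higher and 256 lower, with Gdf6 lost (limma adjusted p = 0.0581). Same-numbered mice of the groups correlated at 0.0076 to 0.29 in their deviations, not above 0.1 for every number, so the numbers were not taken to pair the mice. AdCMV mice 1, 4 and 5 correlated best with the AdVEGF mouse of their own number, at 0.036, 0.096 and 0.29. Their highest values with another number were 0.019, -0.012 and 0.13. Mice 2 and 3 did not, with 0.11 and 0.0076 against 0.23 and 0.13. Depth limits Bmp7, Bmp10, Gdf6 and Bmp6, with 0 to 14 reads in a control mouse, and these calls rest on few reads.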

Other observations

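Among genes tested, those whose deviations from the group means, after median-ratio scaling, were most like a well counted member over the 10 mice were Fam133b, Pcnp and Dbi for Bmp2 (Pearson's r 0.92, 0.91 and 0.91), Crybg3, Tcof1 and Rnf43 for Bmp5 (0.98, 0.96 and 0.92), Gm13375, Pilrb1 and Acsl3 for Gdf2 (0.88, 0.87 and 0.87), Ccr4, Ythdc1 and Gm14501 for Gdf15 (0.94 each) and Slc35b2, Snap47 and Crcp for Bmp1 (0.96 each). Well counted means at least 10 reads in every mouse, and Bmp5 had only 11 reads in AdCMV mice 1 and 4. The points share libraries and depth. They are the highest of 13933 genes, and the 100th highest r was 0.71 to 0.85.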
